A study of Mus musculus with 30 samples.

Results

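The comparison described here sets mesenchymal cells with high GFP against GFP-negative mesenchymal cells of the mouse small intestine, over all genes read in their shared table. Its members are 6 libraries, 3 of GFP-high cells and 3 of GFP-negative cells (called Tomato in the labels), chosen by their sample labels among the 30 labelled samples of the series. The mice were C57BL/6 per the labels and carried ColVI-cre, a Cre recombinase under a collagen VI promoter, together with the Rosa mTmG reporter. In that reporter a cell with Cre activity, and every cell that descends from it, turns from the red membrane protein Tomato to membrane GFP. The GFP-negative cells carry the same alleles. The titles of all libraries used here carry the label Wt, and the labels give no disease model for them. GFP therefore records a history of Cre activity, and the high and low classes are brightness classes set at sorting. GFP-low cells of the same tissue (3 libraries) and GFP-positive and GFP-negative cells of the normal colon (3 libraries each) were used for comparison, as were 2 libraries of unsorted small intestine. Cells were freshly isolated, and the age of the animals is not given in the sources used here. The labels name replicates but not the animals or pools behind them, so p-values measure the spread between these libraries.

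The mesenchyme under the intestinal epithelium instructs it by position. Subepithelial fibroblasts with high Pdgfra, also called telocytes, lie along the villus and at the villus base and secrete BMP ligands and Wnt5a, signals that favour differentiation. Fibroblasts around and beneath the crypts, many of them Cd34-positive, secrete Grem1, which binds and blocks BMP ligands, and R-spondins, which amplify Wnt signals for the stem cells. Smooth muscle cells, pericytes and fibroblasts of the submucosa and of vessel walls (the adventitia, marked by Pi16) complete the compartment. RNA was read at its 3' end (QuantSeq on an Ion Proton), so that a read stands for a transcript whatever its length, and levels below are read counts as normalised by the authors.

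An estimated 1376000 to 2785000 reads lay behind the GFP-high libraries and 1228000 to 3194000 behind the GFP-negative libraries. The shallowest libraries were GFP-high library 2 and GFP-negative libraries 1 and 2. Transcripts known from hepatocytes, a cell type that the small intestine does not hold, were present in unequal amounts. A list of 37 such genes, Alb and Apoa1 among them, was drawn up after the data were seen. Apoa1 is also in the epithelial list used below, so the shares need not be of hepatocytes alone. The list took 3.03%, 0.413% and 2.38% of the counts in GFP-high libraries 1 to 3, and 0.78%, 2.68% and 0.0174% in GFP-negative libraries 1 to 3. These shares varied within each group and the groups overlapped, and 0 of the 37 genes passed the test between them. The list still leaned to one side. The log2 fold change of GFP-high over GFP-negative cells was positive in 31 of the genes and negative in 6, with a median of 1.9. GFP-high library 2 correlated with GFP-negative library 3 at 0.825 over the 12412 genes tested (Pearson's r of log2 levels, across genes, which are not replicates), and with its own group at 0.808 and 0.83. Immune genes such as Cd74 summed to 219 to 804 normalised counts in GFP-high and 619 to 1857 in GFP-negative libraries, against 28103 and 30331 in the unsorted cells. Blood endothelial genes summed to 237 to 705 in GFP-high and 409 to 2029 in GFP-negative libraries, against 2826 and 3570 in unsorted cells. The sums do not cover quite the same genes. For these sorted libraries 11 immune and 12 blood endothelial genes were present, and for the unsorted cells 13 of each. The fibroblast collagen Col1a1 was read at 3604, 5495 and 4311 in GFP-high and at 12786, 14206 and 8504 in GFP-negative libraries, against 922 and 1188 in unsorted cells. Hepatocyte genes summed to 9236 to 68452 in GFP-high and 399 to 66288 in GFP-negative libraries, against 2591 and 1156 in unsorted cells. Col1a1 was thus higher in the sorted than in the unsorted cells, and so were hepatocyte genes in 5 of the 6 libraries.

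**Figure D1:**
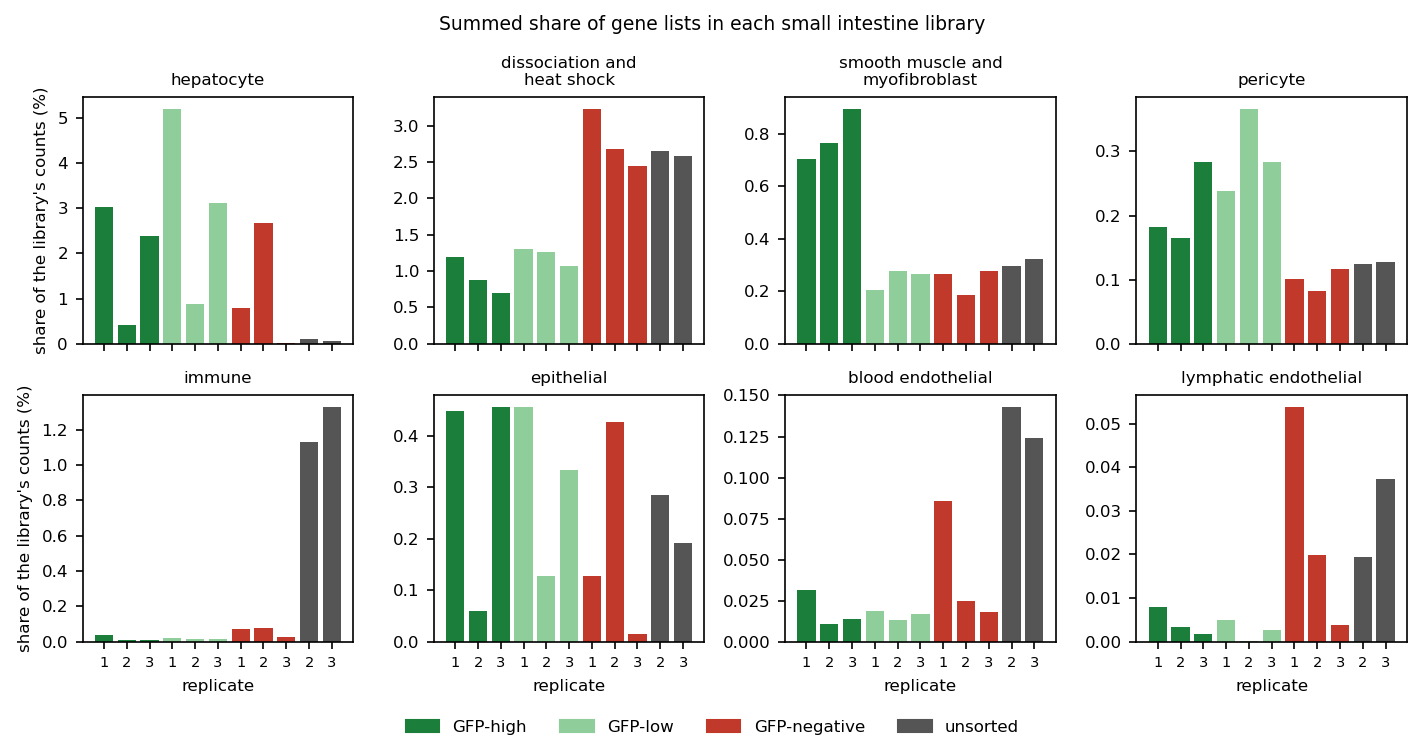
Share of each small intestine library's normalised counts (percent, linear axis from 0, a separate scale in each panel) taken by the genes of 8 lists; each bar is 1 library, in the order GFP-high, GFP-low, GFP-negative and unsorted. Hepatocyte genes vary within every sorted group, dissociation and heat shock genes are lower in all 3 GFP-high than in all 3 GFP-negative libraries, and smooth muscle genes are higher in all 3 GFP-high libraries. Some lists have fewer genes present in some groups than in others.

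Of 15129 genes in the table, 12412 had a mean of at least 10 normalised counts in 1 of the groups and were tested with limma on log2(value + 1). A total of 111 genes (0.894%) passed a Benjamini-Hochberg adjusted p of 0.05 over all genes tested, 49 (0.395%) higher and 62 (0.5%) lower in GFP-high cells. These shares over all genes are the ones to set beside each count of list members below. An unadjusted p under 0.05 was reached by 1311 genes, and the median log2 fold change of all genes tested was 0.062. In 2008 of the 12412 genes (16.2%) the 3 GFP-high libraries all lay on the same side of the 3 GFP-negative ones, which held for all 111 called genes. Each of the 111 codes for a protein per the deposited annotation. Fold changes are log2 differences of group means of log2(value + 1). They depend on the added 1 where a group is near 0, and the differences below are bulk differences, in which fewer cells of a type and less RNA per cell cannot be told apart. In the authors' deposited table the DESeq FDR was under 0.05 for 71 genes (0.469%), 25 higher and 46 lower in GFP-high cells, and 29 genes were common to the lists, 40.8% of the authors' and 26.1% of the limma calls.

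The count rested on few libraries. It was 24 without GFP-high library 3, 59 without GFP-high library 1 and 58 without GFP-negative library 1, and 82 to 104 without each of the other 3. None of the 111 genes changed sign, and 19 passed with any 1 library left out. Of these 19 genes 4 were higher in GFP-high cells, namely Dio2, Tmem158, Bmp5 and Col12a1. The other 15 were lower: Grem1, Rspo2, Mgp, Pcolce2, Ackr4, Igfbp6, Col8a1, Gpc3, Slit2, Prss23, Ptgfr, Chodl, Cpxm1, Auts2 and Zfp36. Among other genes named below, Bmp7 passed in 2 of the 6 fits that left out 1 library. Foxf2, Boc and F2rl3 passed in 1 such fit. Pdgfra, Myl9, Slit3, Ntrk3, Foxp2, Nfkbia and Bag3 passed in 0. With the 3 libraries of over 2% hepatocyte transcripts set aside (GFP-high 1 and 3 and GFP-negative 2), a single GFP-high library faced a pair of GFP-negative ones, and limma called 0 genes, with 584 at an unadjusted p under 0.05; a fit this small says little about the calls, and list medians from it are given below. With ordinary moderated variance, without the trend and robust steps, 21 genes passed, 13 higher and 8 lower. With the hepatocyte level as a covariate 235 genes passed, 146 higher and 89 lower, among them 108 of the 111. With hepatocyte genes left out and the libraries scaled to equal totals, 114 genes passed, 63 higher and 51 lower.

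**Figure D2:**
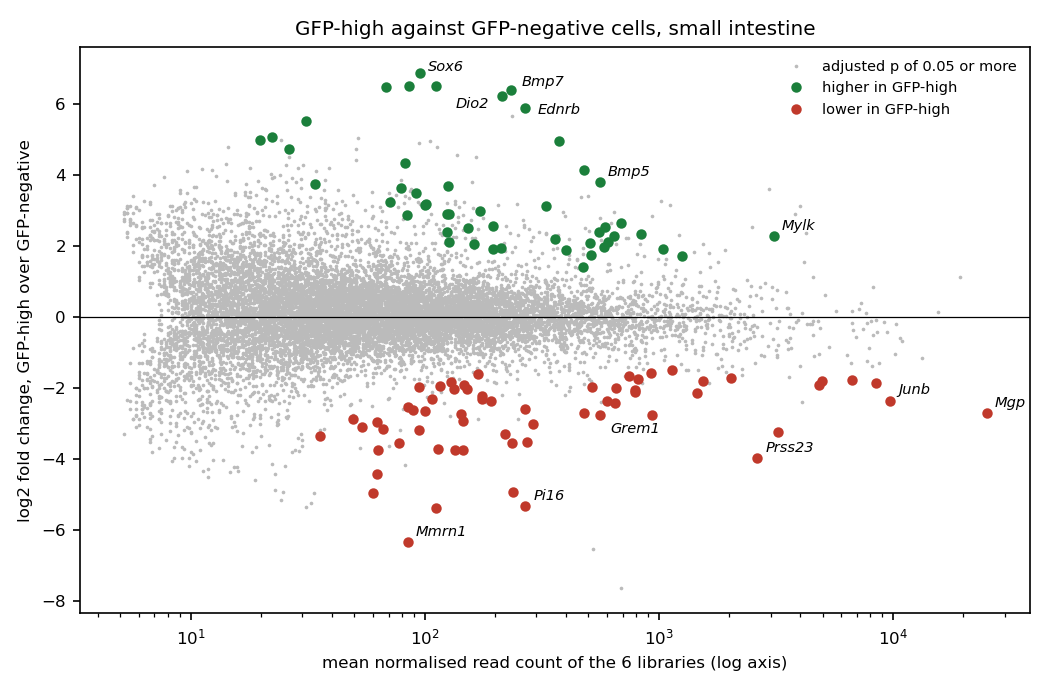
Each point is 1 of the 12412 genes tested, by its mean normalised read count over the 6 libraries (horizontal, log axis) and its log2 fold change in GFP-high over GFP-negative cells (vertical). The 49 genes higher in GFP-high cells and the 62 lower are coloured, and named points include Sox6 at 6.51 and Pi16 at -5.33.

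The 4 genes that mark this sort separated the groups. Sox6, a transcription factor found in subepithelial fibroblasts, was read at 110, 184 and 371 normalised counts in GFP-high libraries 1 to 3, against 4, 0 and 1 in GFP-negative libraries 1 to 3 (log2 6.51, SE 0.803, limma adjusted p = 0.0025). Dio2, the deiodinase that turns thyroxine into active thyroid hormone, stood at 346, 549 and 365, against 4, 2 and 10 in GFP-negative libraries (6.23, SE 0.556, adjusted p = 5e-04). Bmp7 stood at 413, 533 and 429, against 19, 0 and 7 in GFP-negative libraries (6.39, SE 0.973, adjusted p = 0.027). Every GFP-high library lay far above every GFP-negative one in these 3 genes. Pi16, a peptidase inhibitor that marks adventitial fibroblasts, ran the other way at 19, 32 and 2 in GFP-high libraries, against 370, 673 and 517 in GFP-negative libraries (-5.33, SE 0.818, adjusted p = 0.027). These genes were put forward as markers with results of these data known.

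A few BMP ligands were far higher in GFP-high cells. Of 15 tested members of the BMP, GDF, activin and TGF-beta family, 3 rose (Bmp3, Bmp5 and Bmp7), 1 fell (Gdf10) and 11 did not pass. The median log2 fold change was 0.71. Of all genes tested 0.395% rose and 0.5% fell. Bmp3, a divergent family member, was read at 102, 99 and 207 in GFP-high and at 0, 2 and 0 in GFP-negative libraries (log2 6.48, SE 0.865, adjusted p = 0.0046). Bmp5 was the best read of the 3, with 819, 970 and 1301 in GFP-high and 42, 53 and 167 in GFP-negative libraries (3.79, SE 0.473, adjusted p = 0.0032). Neither gene's libraries overlapped between the groups. Bmp2 and Bmp4, the ligands most often measured in the villus mesenchyme, did not pass. Bmp4 was read at 813, 704 and 1081 in GFP-high and at 1269, 1166 and 704 in GFP-negative libraries (-0.25, adjusted p = 0.82), and Bmp2 had a log2 fold change of 0.05 (adjusted p = 0.97). Gdf10, also known as BMP3B, was read at 2, 2 and 14 in GFP-high and at 75, 198 and 85 in GFP-negative libraries (-4.41, adjusted p = 0.023). Without GFP-high library 3 the genes that rose numbered 1, and with the 3 libraries of over 2% hepatocyte transcripts set aside the median was -0.23. With ordinary moderated variance 1 ligand rose and 0 fell.

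Among the BMP antagonists Grem1 fell, with 114, 127 and 197 in GFP-high and 1168, 737 and 1027 in GFP-negative libraries (log2 -2.75, SE 0.339, adjusted p = 0.0025), and the other 10 tested antagonists did not pass (range of all 11, -2.75 to 1.92). Its lowest GFP-negative library stood above its highest GFP-high library by several times. Among 12 tested BMP receptors and target genes 0 passed, and their median was 0.05. Pcsk6, a proprotein convertase that cleaves TGF-beta family precursors, rose to 913, 1521 and 1760 in GFP-high cells, against 428, 170 and 254 in GFP-negative cells (2.34, adjusted p = 0.016). Rspo2, an R-spondin, fell as well. It was read at 28, 39 and 30 in GFP-high and at 204, 355 and 215 in GFP-negative libraries (-2.93, SE 0.394, adjusted p = 0.0048). Rspo3 stood at 18, 13 and 18 against 73, 122 and 72 and missed the threshold (-2.35, adjusted p = 0.057). Of 3 tested R-spondins, 1 fell.

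**Figure D3:**
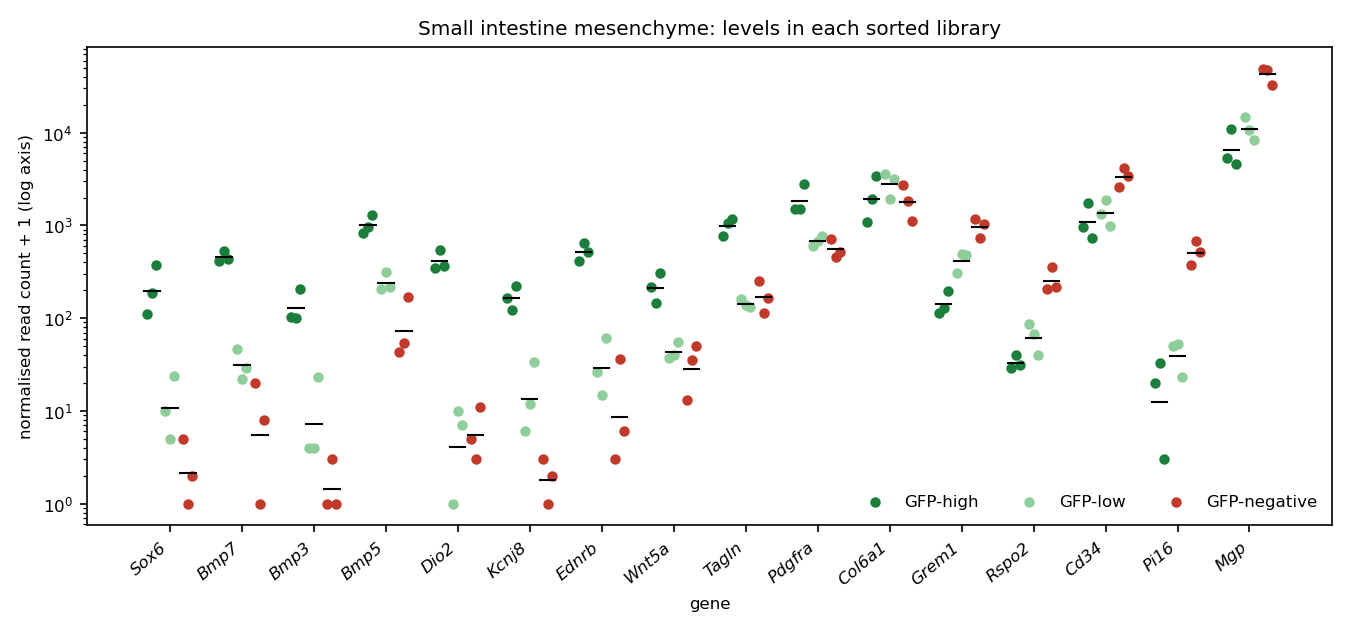
Normalised read count plus 1 (log axis) of 16 genes in each small intestine library; points are libraries, coloured by group in the order GFP-high, GFP-low and GFP-negative, and bars are the means of the log values (n = 3 each). Sox6, Bmp7, Bmp3, Dio2 and Kcnj8 lie far apart, the collagen VI chain Col6a1 overlaps between all groups, and GFP-low libraries lie near GFP-negative ones in the genes on the left and near GFP-high ones in Pi16.

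The promoters of a BMP ligand and of its antagonist are shown because both hold the core of the site bound by GLI proteins, the transcription factors of the Hedgehog pathway, although the genes moved in opposite directions. The promoter of Kcnj8 holds it too, and that of Myl9 is shown for its CArG box, the site bound by serum response factor in contractile genes. Sequences are from RefSeq on GRCm38.p6, 250 bases before to 50 after the gene start, 5' to 3' on the gene's strand, and capitals mark the match on either strand.
Bmp5 (chr9:75775115-75775414, plus strand): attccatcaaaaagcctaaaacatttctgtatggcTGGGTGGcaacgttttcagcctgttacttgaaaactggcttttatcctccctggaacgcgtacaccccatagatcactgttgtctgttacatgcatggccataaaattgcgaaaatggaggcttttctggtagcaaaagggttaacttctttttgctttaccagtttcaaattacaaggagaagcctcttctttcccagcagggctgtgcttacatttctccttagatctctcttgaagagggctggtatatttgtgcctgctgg
Kcnj8 (chr6:142571565-142571864, minus strand): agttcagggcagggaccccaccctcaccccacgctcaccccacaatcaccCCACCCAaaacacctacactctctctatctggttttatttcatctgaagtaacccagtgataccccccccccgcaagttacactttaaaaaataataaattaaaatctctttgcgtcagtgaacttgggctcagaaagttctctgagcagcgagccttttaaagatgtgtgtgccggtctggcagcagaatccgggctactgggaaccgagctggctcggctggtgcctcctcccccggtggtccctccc
Myl9 (chr2:156775214-156775513, plus strand): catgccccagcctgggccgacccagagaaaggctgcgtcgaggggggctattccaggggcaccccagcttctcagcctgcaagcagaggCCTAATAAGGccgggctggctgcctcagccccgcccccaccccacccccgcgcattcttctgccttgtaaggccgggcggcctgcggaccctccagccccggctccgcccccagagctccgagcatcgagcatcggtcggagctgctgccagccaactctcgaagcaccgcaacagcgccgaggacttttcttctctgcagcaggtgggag
Grem1 (chr2:113758599-113758898, minus strand): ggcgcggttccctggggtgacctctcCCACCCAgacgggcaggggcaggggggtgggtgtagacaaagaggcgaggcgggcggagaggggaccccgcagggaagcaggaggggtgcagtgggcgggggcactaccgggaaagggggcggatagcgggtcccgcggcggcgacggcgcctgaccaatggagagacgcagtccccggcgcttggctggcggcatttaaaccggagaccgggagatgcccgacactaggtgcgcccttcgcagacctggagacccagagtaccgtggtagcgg
The GLI core searched was CCACCCA on both strands. It starts at position -215 in Bmp5, -200 in Kcnj8 and -224 in Grem1, counted from the gene start. Among the 111 called genes 73 had a promoter in the RefSeq table. The core was in 7 of 32 higher genes (21.9%) and in 4 of 41 lower genes (9.76%), against 9.3% of all 32851 promoters. The CArG box, at -161 in Myl9, was in 2 higher and 1 lower gene and in 1.63% of all promoters. A forkhead core (TGTTTAC) was in 1 higher and 1 lower gene (3.65% of all), and TATAAA in 1 higher and 7 lower genes (13.6% of all). A match describes letters in this window and shows no binding.

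Wnt5a, a Wnt ligand that acts largely outside the beta-catenin route, rose to 215, 146 and 304 in GFP-high libraries, against 12, 34 and 49 in GFP-negative libraries (log2 2.91, SE 0.529, limma adjusted p = 0.025). It was the 1 of 6 tested Wnt ligands that passed, and 0 of 8 Wnt target genes and 0 of 7 secreted Wnt inhibitors passed. Wif1, which binds Wnt ligands, was read at 93, 34 and 169 in GFP-high and at 15, 0 and 0 in GFP-negative libraries and missed the threshold (5.03, adjusted p = 0.071). Wnt4 likewise did not pass (3.21, adjusted p = 0.31). In the Hedgehog pathway 1 of 12 tested genes rose and 1 fell, against 0.395% and 0.5% of all genes tested. Foxf2, a forkhead factor induced by Hedgehog signals in gut mesenchyme, was read at 118, 240 and 176 in GFP-high and at 6, 19 and 48 in GFP-negative libraries (3.18, adjusted p = 0.044). Boc, a Hedgehog co-receptor, fell to 17, 8 and 6 in GFP-high cells, against 129, 118 and 45 in GFP-negative cells (-3.10, adjusted p = 0.047). Gli1, the usual readout of the pathway, stood at 96, 63 and 110 in GFP-high and at 89, 107 and 187 in GFP-negative libraries, which overlapped (-0.47, adjusted p = 0.72). Of 8 Notch pathway genes 2 fell, the ligand-like Dner (-3.74) and the target Hes1 (-1.82, adjusted p = 0.034).

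Some receptors for vasoactive and coagulation factors were higher in GFP-high cells. Ednrb, an endothelin receptor, was read at 409, 639 and 520 in GFP-high and at 2, 35 and 5 in GFP-negative libraries (log2 5.90, SE 0.810, adjusted p = 0.014). Ednra, its sister receptor, stood at 489, 476 and 799 against 116, 32 and 72 in GFP-negative libraries (3.12, SE 0.454, adjusted p = 0.0072). They were the 2 of 14 tested genes of that list that passed. Of 15 tested genes of the coagulation and plasminogen system 2 rose and 0 fell, against 0.395% and 0.5% of all genes tested. Thbd, thrombomodulin, which turns thrombin towards protein C, was read at 833, 775 and 1356 in GFP-high and at 251, 206 and 207 in GFP-negative libraries (2.11, adjusted p = 0.0091). F2r, the thrombin receptor PAR1, rose as well (2.29, adjusted p = 0.0072). F2rl3, the thrombin receptor PAR4, was near 0 in GFP-negative cells, at 24, 55 and 53 in GFP-high and 0, 0 and 1 in GFP-negative libraries (5.07, SE 1.06, adjusted p = 0.047). Procr, which encodes CD201, the protein C receptor named in the title of the study, stood at 201, 239 and 317 in GFP-high and at 27, 0 and 40 in GFP-negative libraries. Its groups did not overlap, which held for 16.2% of all genes tested. Its spread on the log scale was wide and it did not pass in limma (4.57, SE 1.49, adjusted p = 0.37). In the authors' deposited DESeq test its FDR was 0.031.

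Thyroid hormone genes other than Dio2 did not pass (7 of 8 tested). Among ion channels, Kcnj8, a subunit of the ATP-sensitive potassium channel known from pericytes, was read at 166, 120 and 222 in GFP-high and at 2, 0 and 1 in GFP-negative libraries (log2 6.51, SE 0.762, adjusted p = 0.002). The sodium channel subunit Scn2b (5.51, adjusted p = 0.026) and the calcium channel Cacna1g (3.64, adjusted p = 0.022) rose too. Trp53i11, a p53-induced gene, had the largest fold change of the called genes in this fit, with 166, 154 and 251 in GFP-high and 0, 0 and 3 in GFP-negative libraries (6.88, SE 0.808, adjusted p = 0.002). Tmem158, a Ras-induced membrane protein, had the smallest adjusted p (0.00016), at 616, 554 and 1002 in GFP-high against 21, 27 and 18 in GFP-negative libraries (4.95, SE 0.376). Bean1 (4.35), Pcdh12 (4.99), Mrvi1 (4.15), a target of cGMP-dependent kinase in smooth muscle now also called Irag1, and Syt13 (3.68) were further genes past the threshold with a log2 fold change over 3.

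Of 15 tested genes of the subepithelial fibroblast (telocyte) list, 7 rose (Sox6, Bmp3, Bmp7, Ednrb, Bmp5, Wnt5a and Pdgfra), 0 fell and 8 did not pass. The median log2 fold change was 2.28, with 12 positive and 3 negative, namely Dll1 (-1.13), F3 (-0.15) and Plat (-0.10). Sox6 and Bmp7 are also among the 4 genes that mark this sort, and 0.395% of all genes tested rose. Pdgfra, the receptor that names these fibroblasts, was read at 1489, 1493 and 2796 in GFP-high and at 719, 461 and 514 in GFP-negative libraries (log2 1.73, SE 0.348, limma adjusted p = 0.041). It passed in 0 of the 6 fits that left out 1 library. Foxl1, a forkhead factor of telocytes, was low in every library, at 15, 23 and 36 in GFP-high and at 6, 0 and 7 in GFP-negative libraries, and did not pass (2.66, adjusted p = 0.40). The number that passed was 1 without GFP-high library 3 and 4 without GFP-high library 1 or GFP-negative library 3, while the median stayed between 1.76 and 2.53 with any 1 library left out. The median was 1.68 when the 3 libraries with over 2% hepatocyte transcripts were set aside. Of the 15, 2 passed with ordinary moderated variance.

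Contractile genes were higher on the GFP-high side. Of 18 tested smooth muscle and myofibroblast genes 4 rose (against 0.395% of all genes tested), 0 fell and 17 had a positive fold change. Their median was 1.72. Tagln, an actin-binding protein of smooth muscle, was read at 762, 1064 and 1165 in GFP-high and at 253, 114 and 162 in GFP-negative libraries (log2 2.55, SE 0.360, adjusted p = 0.0066). Mylk, the kinase of the myosin light chain, stood at 5039, 3537 and 6506 against 1166, 491 and 1800 in GFP-negative libraries (2.27, adjusted p = 0.041), and the light chain Myl9 at 863, 1191 and 718 against 312, 131 and 296 (1.97, adjusted p = 0.036). In each of these genes the groups were apart. Cald1, caldesmon, was the other one (1.76, adjusted p = 0.026). Acta2, smooth muscle actin, stood at 2358, 1508 and 3279 in GFP-high and at 1473, 349 and 309 in GFP-negative libraries and did not pass (2.06, SE 0.594, adjusted p = 0.23). The lowest GFP-high value lay just above the highest GFP-negative one, and groups were apart in 16.2% of all genes tested. Without GFP-high library 3 no gene of the list passed and the median was 1.79, the number was 1 without GFP-high library 1, and it was 2 without GFP-high library 2, GFP-negative library 2 or GFP-negative library 3. Of the 18, 0 passed with ordinary moderated variance. Des, a muscle intermediate filament, was read at 316, 88 and 142 in GFP-high and at 4, 43 and 78 in GFP-negative libraries (2.62, adjusted p = 0.45).

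Most pericyte genes had a positive fold change, though few passed. Of 10 tested, 2 rose (Kcnj8 and Cspg4, against 0.395% of all genes tested) and 8 did not pass, with a median of 2.80. The fold change was positive in 9 and negative in 1. Abcc9 (log2 5.66) and Notch3 (4.12) were among those that did not pass in limma. The authors' deposited DESeq FDR for Abcc9 was 4.2e-05. The number was 1 without GFP-high library 1, GFP-high library 2 or GFP-negative library 3, and 0 without GFP-high library 3, and it was 1 with ordinary moderated variance. Cspg4, the NG2 proteoglycan, was read at 236, 253 and 290 in GFP-high and at 89, 37 and 69 in GFP-negative libraries (log2 2.06, adjusted p = 0.032). Rgs5, the most used pericyte marker, stood at 2484, 2406 and 4079 in GFP-high and at 2024, 1513 and 2269 in GFP-negative libraries (0.60, adjusted p = 0.54). The whole list summed to 3681 to 6061 in GFP-high, 5673 to 8420 in GFP-low and 2030 to 2670 in GFP-negative libraries. The part of pericytes or smooth muscle cells in the differences above was not tested.

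**Figure D4:**
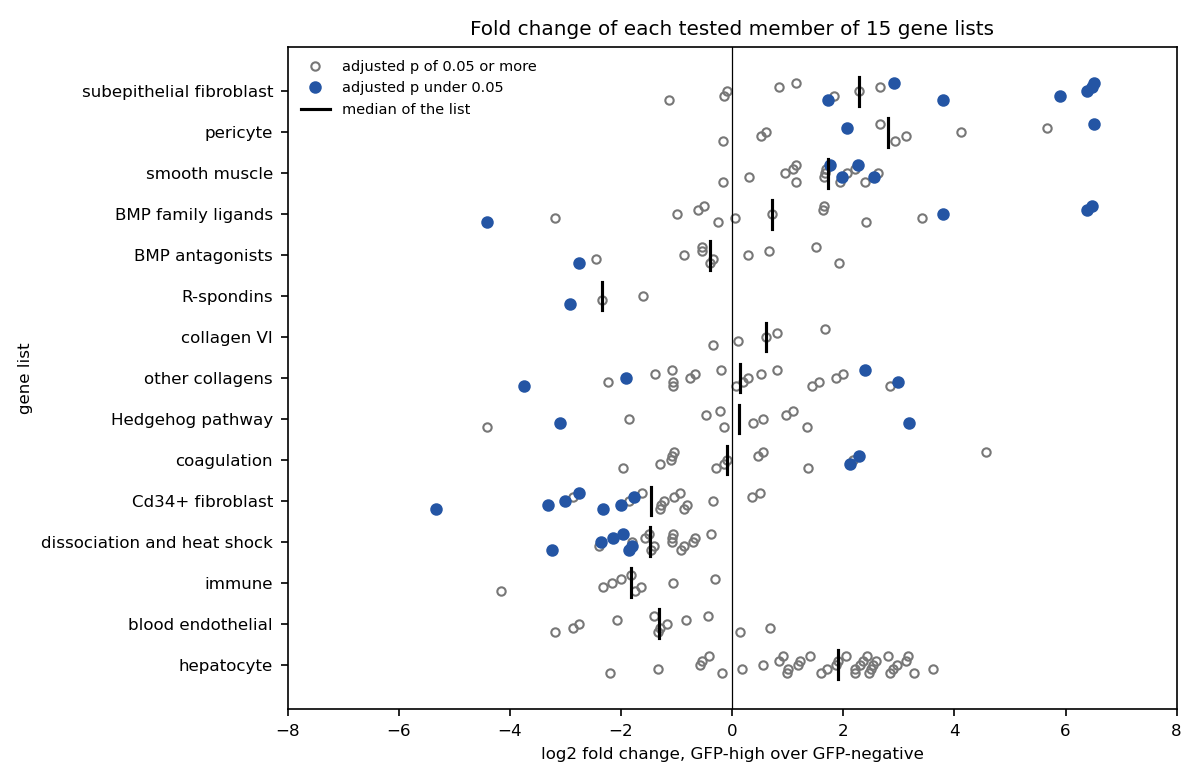
Log2 fold change (horizontal) of every tested member of 15 gene lists (vertical) in GFP-high over GFP-negative cells; filled points have a limma adjusted p under 0.05 over all genes, open points do not, and black bars are the medians of the lists. Subepithelial, pericyte and smooth muscle genes lie to the right with medians of 2.28, 2.80 and 1.72, and Cd34-positive fibroblast and dissociation genes to the left with medians of -1.46 and -1.49. Such shifts were not limited to these lists. Hepatocyte genes also had a positive median (1.9), and immune genes and R-spondins had negative ones (-1.83 and -2.35).

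Genes of Cd34-positive and adventitial fibroblasts were lower in GFP-high cells. Of 20 tested, 7 fell (Pi16, Pcolce2, Igfbp6, Ackr4, Cd81, Mfap5 and Fbln1), 0 rose and 18 had a negative fold change, with a median of -1.46. Pi16 is also among the 4 genes that mark this sort, and 0.5% of all genes tested fell. Ackr4, a receptor that scavenges the chemokines Ccl19 and Ccl21, was read at 269, 216 and 232 in GFP-high and at 1292, 1767 and 1848 in GFP-negative libraries (log2 -2.76, SE 0.304, adjusted p = 0.0016). Pcolce2, an enhancer of procollagen processing, stood at 52, 29 and 40 against 391, 477 and 338 in GFP-negative libraries (-3.31, SE 0.368, adjusted p = 0.0016). The groups of both genes were apart by several times. Igfbp6, which binds insulin-like growth factor 2, stood at 48, 101 and 46 against 397, 733 and 416 in GFP-negative libraries (-3.01, adjusted p = 0.0049). Cd34, the sialomucin that names the cells, was lower in each GFP-high library, at 968, 1758 and 734 against 2609, 4155 and 3416 in GFP-negative libraries, but missed the threshold (-1.63, SE 0.369, adjusted p = 0.070). Such a separation was seen in 16.2% of all genes tested. With 1 library left out, 3 to 9 genes of the list fell and the median ran from -1.79 to -1.27. The number was 3 without GFP-high library 1, GFP-negative library 1 or GFP-negative library 2, and 4 without GFP-high library 3 or GFP-negative library 3. With the 3 libraries of over 2% hepatocyte transcripts set aside, the median was -1.18. With ordinary moderated variance 1 of the 20 passed.

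Mgp, matrix Gla protein, an inhibitor of calcification and of BMP signals, was among the best read transcripts of the mesenchyme, at 5352, 11068 and 4541 in GFP-high and at 48952, 47762 and 32683 in GFP-negative libraries (log2 -2.72, SE 0.376, adjusted p = 0.0057). The fibrillar collagens Col1a1 (-1.39, adjusted p = 0.078) and Col3a1 (-1.06, adjusted p = 0.17) did not pass. Their groups were apart, as were those of 16.2% of all genes tested. Of 22 tested collagen genes outside type VI, 2 rose and 2 fell, against 0.395% and 0.5% of all genes tested. Col12a1, a chain that lies on collagen fibrils, was read at 229, 297 and 395 in GFP-high and at 37, 30 and 45 in GFP-negative libraries (2.99, SE 0.380, adjusted p = 0.0031), and the transmembrane collagen Col23a1 rose too (2.39, adjusted p = 0.042). Col8a1, a network collagen of vessel walls, stood at 20, 15 and 18 against 320, 197 and 242 in GFP-negative libraries (-3.75, SE 0.412, adjusted p = 0.0016). Col14a1, another fibril-associated collagen, fell as well (-1.92, adjusted p = 0.013). Ltbp2 rose (2.91, adjusted p = 0.021) and Fbln1 and Mfap5 fell among 20 elastic fibre genes. None of 13 laminin and basement membrane genes passed. Other lower genes of the matrix and cell surface were the glypican Gpc3 (-3.52), the carboxypeptidase-like Cpxm1 (-3.55), Cilp (-2.71), the secreted protease Prss23 (-3.98) and the scavenger receptor Scara5 (-3.75).

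Of 5 tested collagen VI chains 0 passed, 4 had a positive fold change and 3 had groups that did not overlap (16.2% of all genes tested). Col6a1 was read at 1099, 1909 and 3379 in GFP-high and at 2749, 1841 and 1109 in GFP-negative libraries (log2 0.11, SE 0.447, adjusted p = 0.95). Its libraries overlapped between the groups, as did those of Col6a3 (-0.34, adjusted p = 0.76). Col6a2 stood at 2427, 2431 and 4737 in GFP-high and at 2327, 2244 and 1517 in GFP-negative libraries (0.61, adjusted p = 0.57). Col6a4 stood at 80, 96 and 140 in GFP-high and at 25, 21 and 58 in GFP-negative libraries (1.68, adjusted p = 0.19). Col6a5 stood at 151, 236 and 201 in GFP-high and at 112, 91 and 132 in GFP-negative libraries (0.80, adjusted p = 0.44). In these 3 chains every GFP-high library lay above every GFP-negative one, in Col6a2 by a narrow margin. GFP marks past Cre activity, so these values describe RNA at the time of sorting and are no check of the label. The study's title names the cells after Col6a1, while the labels call the allele ColVI-cre.

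Slit2, a repulsive guidance ligand, was read at 17, 11 and 13 in GFP-high and at 283, 91 and 271 in GFP-negative libraries (log2 -3.73, SE 0.533, adjusted p = 0.007), and its relative Slit3 fell too (-1.61, adjusted p = 0.047). Chodl, a membrane lectin, stood at 4, 26 and 24 against 488, 461 and 417 in GFP-negative libraries (-4.92, SE 0.589, adjusted p = 0.0025). Ntrk3, the receptor of neurotrophin 3, fell (-2.95, adjusted p = 0.036). Vldlr, a lipoprotein and reelin receptor, was read at 5, 0 and 8 in GFP-high and at 110, 118 and 121 in GFP-negative libraries (-4.96, SE 0.845, adjusted p = 0.017). Of 34 tested mesenchymal transcription factors, 2 rose (Sox6 and Foxf2) and 3 fell, namely Osr1 (-2.53), Klf4 (-2.37) and Foxp2 (-1.97). Of 27 chemokine and cytokine genes, 1 rose and 1 fell. Il34, a ligand of the macrophage growth factor receptor Csf1r, was read at 641, 1033 and 801 in GFP-high and at 158, 189 and 226 in GFP-negative libraries (2.09, SE 0.321, adjusted p = 0.0091). Il6, an inflammatory cytokine, stood at 46, 31 and 24 against 413, 219 and 124 in GFP-negative libraries (-2.75, adjusted p = 0.022). Ptgfr, the receptor of prostaglandin F2, fell (-3.55, adjusted p = 0.0075). None of the tested genes passed in the lists of integrins (14), cadherins (10), complement (11), interferon-stimulated genes (29), cell cycle (14), vessel factors (18) and EGF, FGF, HGF and IGF factors (11).

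Immediate early and stress genes were lower in GFP-high cells as well. These genes are induced within minutes when tissue is dissociated, and all 20 tested members had a negative fold change, with a median of -1.49. Of these, 6 fell, against 0.5% of all genes tested: Zfp36, Junb, Hsp90aa1, Ier2, Egr1 and Jun. Zfp36, an RNA-binding protein that destabilises cytokine mRNAs, was read at 769, 793 and 370 in GFP-high and at 6696, 4918 and 5823 in GFP-negative libraries (log2 -3.24, SE 0.355, adjusted p = 0.0016). Junb stood at 4284, 4137 and 1720 against 15196, 18296 and 14816 in GFP-negative libraries (-2.36, adjusted p = 0.012). The list summed to 14981 to 27029 in GFP-high, 22970 to 30966 in GFP-low and 56235 to 76535 in GFP-negative libraries. In the colon the same sum was 114320 to 211257 in GFP-positive and 141928 to 247594 in GFP-negative libraries, which overlapped. There 1 of the 20 genes passed, against 5.98% of all genes tested. The tissues were scaled separately, so their sums do not compare directly. As shares of counts the list took 3.11 to 5.17% in GFP-positive and 3.46 to 5.77% in GFP-negative colon libraries. In the small intestine it took 0.701 to 1.2% in GFP-high and 2.45 to 3.23% in GFP-negative libraries. Nfkbia (-1.71), Ier5 (-1.74) and Bag3 (-1.68), named here after their values were seen, are of the same kind and fell too. With 1 library left out 1 to 6 genes of the list passed, 1 without GFP-negative library 1, 2 without GFP-high library 3 and 3 without GFP-high library 2 or GFP-negative library 3. With the 3 libraries of over 2% hepatocyte transcripts set aside, 19 of the 20 were negative and the median was -1.82. Of the 20, 0 passed with ordinary moderated variance. The part of the dissociation response in the other differences was not tested.

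Among the genes that passed, the lowest fold changes were those of Mmrn1 and Ccl21a, which are known from lymphatic endothelium. Mmrn1, a secreted protein of lymphatic vessels, was listed at 0 in all 3 GFP-high libraries and read at 382, 114 and 11 in GFP-negative libraries (limma adjusted p = 0.039). Ccl21a, the lymphatic chemokine, stood at 5, 0 and 4 in GFP-high and at 449, 189 and 24 in GFP-negative libraries (log2 -5.37, SE 1.09, adjusted p = 0.047). In both genes GFP-negative library 3 was far below the other GFP-negative libraries, and both passed in 1 of the 6 fits that left out 1 library, the fit without GFP-negative library 3. The 6 genes of the lymphatic list summed to 38 to 181 in GFP-high and 85 to 1274 in GFP-negative libraries, and Lyve1, Prox1, Flt4 and Reln did not pass. The epithelial list summed to 1313 to 10128 in GFP-high and 345 to 10556 in GFP-negative libraries. In limma 0 of its 14 tested genes passed, with 9 negative and 5 positive. Reg3b (log2 -7.6), Krt20 (-4.0) and Reg3g (-3.0) were among the negative ones. The authors' deposited DESeq FDR was 1.6e-10 for Reg3b, 0.017 for Krt20 and 0.031 for Reg3g. Epcam, the defining marker of the list, was at 2 to 11 in GFP-high and 11 to 24 in GFP-negative libraries. That list holds genes that hepatocytes also express, such as Apoa1.

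GFP-low cells were used to ask which differences go with brightness. Of 12226 genes tested between GFP-high and GFP-low cells, 47 passed (0.384%), 45 higher (0.368%) and 2 lower (0.0164%) in GFP-high cells. The GFP-high libraries are common to this comparison and the main one, so the values are set side by side. Dio2 was read at 0, 9 and 6 in GFP-low libraries, and GFP-high cells were higher by 6.64 on the log2 scale (adjusted p = 0.0064). Ednrb stood at 25, 14 and 60 in GFP-low libraries (4.16, adjusted p = 0.0015), Bmp7 at 46, 21 and 28 (3.88, adjusted p = 0.0011) and Tagln at 159, 139 and 131 (2.77, adjusted p = 0.0015). All 4 genes were far lower in GFP-low than in GFP-high cells. Contractile genes that missed the threshold against GFP-negative cells passed here: Acta2 was at 378, 338 and 611 in GFP-low libraries (2.40, adjusted p = 0.0083), and Myh11 (2.87), Cnn1 (3.20) and Tpm2 (2.70) passed as well, so that 7 of 18 smooth muscle genes were higher than in GFP-low cells. Wnt4 (2.51, adjusted p = 0.0064) and Wif1 (4.92, adjusted p = 0.042) passed too. Pcolce2 was lower than in GFP-low cells (-2.55, adjusted p = 0.0096).

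Of the 49 genes higher in GFP-high than in GFP-negative cells, the GFP-low mean lay nearer to that of GFP-negative cells in 40. Of the 61 lower genes with a GFP-low value, it lay nearer to that of GFP-negative cells in 11, and thus nearer to the GFP-high mean in most. Zfp36 shows the second kind, at 1466, 427 and 379 in GFP-low libraries, and so does Pi16 at 49, 52 and 22. These genes were chosen on GFP-high and GFP-negative libraries, so the counts are a description. The count of 47 was 14, 25 and 28 without GFP-high libraries 3, 1 and 2.

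A sort by GFP in the normal colon allowed the contrasts to be compared. The colon labels name a single GFP class, not divided into high and low. Tissue and brightness class therefore cannot be told apart where the contrasts differ. Colon GFP-positive against GFP-negative cells gave 798 called genes of 13346 (5.98%), with 2.97% higher and 3.01% lower. Of the 111 small intestine genes 109 were tested there, and 71 were called in the same direction, 34 higher and 37 lower, which is 64% of the 111 and 8.9% of the 798, while 0 were called in the opposite direction. The colon and small intestine groups have no library in common. Sox6 (log2 5.45), Bmp3 (4.53), Bmp7 (3.66) and Wnt5a (3.26) were higher and Grem1 (-4.23) and Pi16 (-2.72) were lower in GFP-positive colon cells. Procr passed limma there (4.49, adjusted p = 8.9e-05), as did Foxl1 (2.86, adjusted p = 0.00023) and Acta2 (2.15, adjusted p = 0.0033). These genes did not pass limma in the small intestine. The differences between the tissues were 0.09, -0.20 and -0.09 and did not pass. A count of calls is no measure of the size of an effect, and the tables of the tissues were normalised separately.

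The difference of the contrasts, small intestine minus colon, was tested in a joint limma fit. Of 12981 genes 12 passed (0.0924%), 5 with a positive and 7 with a negative difference. Dio2 was the leading one. In the colon it was read at 31, 15 and 25 in GFP-positive and 12, 40 and 18 in GFP-negative libraries (log2 0.13), which overlapped, and the difference was 6.10 (SE 0.808, adjusted p = 0.018). Trp53i11 stood at 75, 76 and 117 in GFP-positive and 28, 30 and 29 in GFP-negative colon libraries (1.56), and its difference was 5.32 (adjusted p = 0.024). Bmp6 (2.72) and Ccl11 (3.01), an eosinophil chemokine, were negative in the colon contrast. Piezo2, a mechanosensitive channel, was read at 13, 37 and 11 in GFP-high and 148, 184 and 175 in GFP-negative cells of the small intestine (-3.19, adjusted p = 0.013). In the colon its contrast was 1.25 and did not pass (adjusted p = 0.073), and the difference was -4.44 (adjusted p = 0.024). Edn3, an endothelin that binds Ednrb, was higher in GFP-positive colon cells (3.36, adjusted p = 0.00066) and stood at 27, 31 and 24 in GFP-high and 37, 24 and 50 in GFP-negative cells of the small intestine (difference -3.73, adjusted p = 0.047). The number that passed ran from 0 to 38 when any 1 of the 12 libraries was left out. It was 0 without GFP-high library 3, 38 without GFP-negative library 3 of the small intestine, and 0 to 3 without any single colon library.

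**Figure D5:**
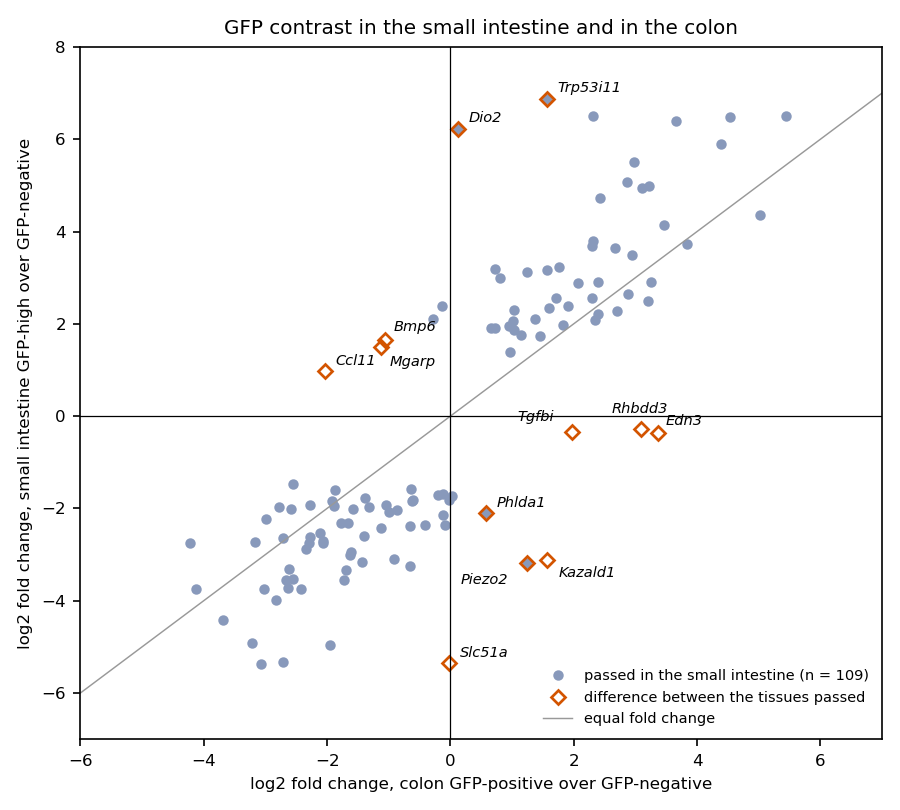
Log2 fold change of colon GFP-positive over GFP-negative cells (horizontal) and of small intestine GFP-high over GFP-negative cells (vertical); filled points are the 109 of 111 small intestine calls tested in both tissues, diamonds the 12 genes whose difference between the tissues passed, and the line marks equal fold changes. Most points share their sign between the tissues, and Dio2 lies at 0.13 in the colon and 6.23 in the small intestine.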

How the data were processed

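RNA of sorted mesenchymal cells was read from its 3' end with the Lexogen QuantSeq kit on an Ion Proton, per the labels' protocols. The authors used TopHat2, Bowtie2, DESeq and the build mm10, per the submitters' processing notes, which name no versions. The read counter and its annotation and strand setting were not stated. Levels are read counts per gene that the authors had normalised and rounded to whole numbers before deposit, per the file headers, and were treated as a score and not as raw counts. Reads per library were estimated from the step between low values.

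Values plus 1 were taken to log2 and fitted with limma (version 3.58.1, under R 4.3.3), using a variance trend and robust moderation. A gene entered where either group averaged 10 or more, with Benjamini-Hochberg adjustment over all genes tested and a threshold of 0.05. The fit held the 2 groups compared. The contrasts of the small intestine and colon tables, which were scaled separately, were set against each other in a joint fit. The p-values, log2 ratios and FDR of the authors' deposited table were used where that table is named. The test was tried on simulated data. Alternatives changed the pseudocount, level minimum, scaling, variance model, libraries and replicate block. The members and gene lists were chosen with earlier results of these data known, and the hepatocyte list, and the alternatives built on it, after the data were seen. Genes are named where they are the 4 markers, Procr, Cd34, Pdgfra, Foxl1, Acta2, Gli1, Grem1 or a collagen VI chain, among the 10 largest increases or decreases past the threshold whose groups were apart, members of a list, or among the 6 largest differences between tissues in each direction. The genes that passed with any 1 library left out, Pcsk6, Cacna1g, Mrvi1, Syt13, Tmem158 and other genes outside that rule were chosen after their values were seen. Unsorted small intestine replicate 1 and the colitis samples were not analysed here. Of the genes past the threshold, some are not reported here.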

Additional observations from a re-analysis of the deposited data

Results flagged for a closer look

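The change between GFP-high or GFP-positive and GFP-negative cells differed between small intestine and colon for 12 genes, by a test of the difference itself (limma, adjusted over 12981 genes). The colon GFP class was not divided by brightness, so tissue and brightness class cannot be told apart here. The difference, small intestine minus colon on the log2 scale, was positive for Dio2 (6.10, adjusted p = 0.018), Trp53i11 (5.32, adjusted p = 0.024), Ccl11 (3.01, adjusted p = 0.03), Bmp6 (2.72, adjusted p = 0.034) and Mgarp (2.61, adjusted p = 0.024). It was negative for Tgfbi (-2.31, adjusted p = 0.03), Phlda1 (-2.70, adjusted p = 0.047), Rhbdd3 (-3.38, adjusted p = 0.03), Edn3 (-3.73, adjusted p = 0.047), Piezo2 (-4.44, adjusted p = 0.024), Kazald1 (-4.69, adjusted p = 0.03) and Slc51a (-5.34, adjusted p = 0.026). Slc51a, a subunit of the bile acid exporter of the gut, was listed at 0 in all 3 GFP-high libraries, so its fitted value depends on the added 1. Dio2 passed in 17 of 21 settings, Piezo2 in 14 and Edn3 in 7.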

How the results depend on the processing

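The 111 genes of GFP-high against GFP-negative cells were 98 to 153 with another pseudocount, level minimum or scaling, and 161 in a fit of all sorted groups. With ordinary moderated variance 21 passed (11 of them among the 111), with the hepatocyte level as a covariate 235, and without the libraries of over 2% hepatocyte transcripts 0. Leaving out 1 library gave 24 to 104. The 12 genes that differed between the tissues became 20 with a pseudocount of 5, 82 without the libraries of over 2% hepatocyte transcripts, and 0 to 38 with 1 library left out. The 47 genes of GFP-high against GFP-low cells became 0 with ordinary moderated variance, 19 in a fit of all sorted groups and 14 to 52 with 1 library left out. For these the cause was not tested.

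Between same-numbered samples, deviations from the group means correlated at 0.038, -0.205 and -0.154 for GFP-high and GFP-negative libraries, at 0.118, 0.235 and 0.097 for GFP-high and GFP-low libraries, and at 0.16, -0.20 and 0.12 for the colon groups. In none of these sets did every pair exceed 0.1, so the numbers were not taken to pair the samples, and 0 of 3 GFP-high libraries correlated best with its own number. With a replicate block 89 genes passed for GFP-high against GFP-negative cells and 91 for GFP-high against GFP-low cells. For the difference between the tissues 0 of the 12 genes passed with the replicate block, with 1018 genes at an unadjusted p under 0.05 in limma.

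Signs changed in genes near 0. Bmp2 ran from -0.15 to 0.39 with 1 library left out (-0.10 without GFP-high library 3, -0.15 and -0.09 without GFP-negative libraries 2 and 3), and was -0.04 with the hepatocyte covariate and -0.43 without the libraries of over 2% hepatocyte transcripts. Col6a1 ran from -0.29 to 0.51 with 1 library left out, and was -0.29 without GFP-high library 3, -0.23 without GFP-negative library 3 and -0.10 with the hepatocyte covariate. Col6a3 was 0.23 without the libraries of over 2% hepatocyte transcripts, and Rhbdd3 ran from -0.65 to 0.14 with 1 library left out, 0.14 without GFP-high library 1. The depth of the shallowest libraries limits what can be said of genes near 0.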
